A study of Mus musculus with 9 samples.

Results

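The WASP-interacting proteins are a small family of actin regulators, and the genes described here are its 3 members, Wipf1, Wipf2 and Wipf3, with the 2 proteins they bind, encoded by Was (WASP) and Wasl (N-WASP). They were taken by symbol, 5 genes of the 23018 in the table, and each symbol was present once. The family was chosen by the level of Wipf3, which had been seen to be lower in meninges, so its values in meninges against each other tissue are given as a description, with no test. The other 4 genes were taken by name as its relatives and partners, with earlier results of these data known.

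WASP and N-WASP bind the Arp2/3 complex and switch it on, and the complex then nucleates branched actin filaments at membranes and cell junctions. Members of the WASP-interacting family bind WASP or N-WASP, hold them in an inactive state or protect them from degradation, and bring them to sites of actin assembly. WASP itself is a protein of blood cells, whose loss in humans causes Wiskott-Aldrich syndrome, while N-WASP is made in most tissues. WIPF3, also called CR16, is known mainly from brain and testis of rodents.

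Lymphatic endothelial cells (LECs) were sorted from meninges, diaphragm and skin of adult wild-type male C57BL/6 mice, 10 weeks old and untreated, with 3 libraries per tissue and 9 in all. The sort took cells lacking the leukocyte antigen CD45 that were positive for the endothelial antigen CD31 and for podoplanin. The labels name no transgene or mutation. They do not tie libraries to single animals or pools, so the spread behind each p-value may be technical. RNA was amplified before sequencing, and total counts ran from 26075366 to 34592850 per library. The LEC transcription factor Prox1 was present in each library, at 716 to 1332 CPM (the read count scaled to a common effective library size) in meninges, 1666 to 2022 CPM in diaphragm and 1799 to 2042 CPM in skin. Summed levels of 12 fibroblast markers were 1659 to 8910 CPM in meninges, 924 to 1766 CPM in diaphragm and 268 to 1253 CPM in skin. Blood endothelial sums (10 markers) were 1410 to 3352, 1639 to 2435 and 1218 to 1447 CPM in the same order. Mural cell sums (10 markers) were 538 to 1343, 339 to 557 and 39.3 to 297 CPM. Mesothelial sums (6 markers) ran up to 1194 CPM in diaphragm and 3.44 CPM in meninges, and were 0 in skin. Keratinocyte sums (7 measured markers) were 2.54 to 55.9 CPM in meninges and 2.31 to 10.8 CPM in diaphragm. In skin they were 0.0387, 356 and 1.01 CPM in replicates 1 to 3. Esm1, a blood endothelial marker, was at 69.7 to 97.6 CPM in meninges and at most 0.774 CPM elsewhere. Plvap was also highest in meninges, whereas Emcn was lowest there. Summed levels of 9 measured skeletal muscle markers were 17.1 to 49.6 CPM in meninges, 418 to 1077 CPM in diaphragm and 81.2 to 269 CPM in skin, and those of 10 LEC markers 6725 to 16637, 15010 to 20628 and 20825 to 21417 CPM. The part of these marker differences in the results below was not tested.

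The 250 bases before the start of Wipf3 and of Was are shown because Wipf3 is the gene by which the family was chosen and Was is the member with no count in most libraries. Both were read from the RefSeq promoter table of build GRCm38.p6 and run 5′ to 3′ on the gene's strand, with CpG dinucleotides in capitals. The Wipf3 sequence lies at chr6:54429436-54429685 on the plus strand and the Was sequence at chrX:8090492-8090741 on the minus strand.
Wipf3: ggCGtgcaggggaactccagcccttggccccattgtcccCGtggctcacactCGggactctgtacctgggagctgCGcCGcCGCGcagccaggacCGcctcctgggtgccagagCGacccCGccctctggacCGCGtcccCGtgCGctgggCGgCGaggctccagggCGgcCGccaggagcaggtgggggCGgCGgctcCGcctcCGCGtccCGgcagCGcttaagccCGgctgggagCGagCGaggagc
Was: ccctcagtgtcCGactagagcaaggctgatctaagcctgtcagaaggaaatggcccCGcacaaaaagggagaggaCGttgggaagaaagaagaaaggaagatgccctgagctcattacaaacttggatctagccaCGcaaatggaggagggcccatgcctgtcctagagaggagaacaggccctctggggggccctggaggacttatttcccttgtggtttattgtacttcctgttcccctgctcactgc
The motif searched was CG, which reads the same on both strands and was found at least once in 92.1% of the 32851 promoters of this length. The Wipf3 sequence held 28 CpG dinucleotides, more than 92.4% of promoters, and was 76.0% G or C. The Was sequence held 4 and was 53.6% G or C, against a median of 6 CpG dinucleotides and 52.4% G or C over all promoters. Wasl also had 28, Wipf2 had 21, and the 3 listed starts of Wipf1 had 1, 3 and 29. The letters alone say nothing about which promoter was in use in these cells.

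Wipf3, the member chosen by its level, stood at 48.3, 27.5 and 57.0 CPM in Meninges replicates 1 to 3, at 432, 466 and 518 CPM in the diaphragm libraries and at 1097, 818 and 872 CPM in the skin libraries. No library of one tissue reached the range of another, so that the order was meninges, diaphragm and skin from low to high. The means were 44.3 ± 15.2 CPM for meninges, 472 ± 43 for diaphragm and 929 ± 148 for skin (n = 3 each, SD). Counts behind these values ran from 879 in Meninges replicate 2 to 28355 in Skin replicate 1, far above the floor of 3 counts. In bulk libraries of sorted cells, fewer cells with the transcript and less transcript per cell cannot be told apart.

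**Figure D1:**
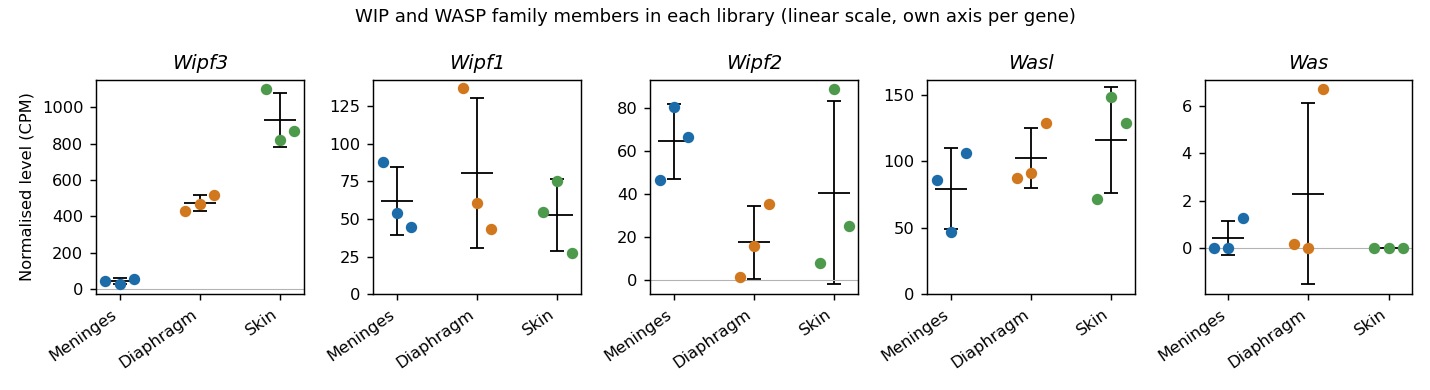
Normalised level (CPM, linear axis, a separate axis for each gene) of the 5 genes in each library of meninges, diaphragm and skin; points are libraries, horizontal bars tissue means and error bars SD (n = 3). The Wipf3 points of the 3 tissues form separate groups at 27.5 to 57.0, 432 to 518 and 818 to 1097 CPM, whereas the points of Wipf1 and Wasl overlap between all tissues.

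Set against diaphragm, the mean Wipf3 level in meninges was lower by 10.7-fold (fitted log2 fold change -3.41, standard error 0.35). Set against skin it was lower by 21.0-fold (fitted log2 fold change -4.39, standard error 0.37). These are the differences for which the gene was picked. Among the 14831 genes tested, 17.1% had libraries that did not overlap between meninges and diaphragm (6.7% with meninges lower) and 20.2% between meninges and skin (7.34% with meninges lower), and nothing is read from Wipf3 being among them. The 2 comparisons share the meningeal libraries.

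For diaphragm against skin, the contrast on which Wipf3 was not picked, the difference did not pass the test across all genes. Wipf3 averaged 472 ± 43 CPM in diaphragm and 929 ± 148 CPM in skin (log2 fold change -0.98, standard error 0.32, n = 3 each), with an edgeR quasi-likelihood adjusted p = 0.318 and an unadjusted p = 0.00933. All 3 diaphragm libraries lay below all 3 skin libraries, as did those of 5.95% of genes tested, and 13.5% of genes did not overlap in either direction. In this comparison 6 genes, or 0.0405%, were called at an adjusted p under 0.05.

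The Wipf3 level was also set against Prox1 in the same library, a scale chosen after the data were seen. Wipf3 counts came to 3.63%, 3.83% and 4.70% of Prox1 counts in Meninges replicates 1 to 3. In diaphragm libraries they came to 25.9%, 26.7% and 25.6%, and in skin libraries to 53.7%, 45.5% and 44.8%. Within meninges, Prox1 and Wipf3 were both lowest in replicate 2, the library with 716 CPM of Prox1 and 8910 CPM of summed fibroblast markers. On this scale meninges stood 6.44-fold below diaphragm and 11.8-fold below skin, log2 ratios of -2.69 and -3.57, which is smaller than on the CPM scale. Meninges replicate 1, with 1659 CPM of fibroblast markers, within the diaphragm range of 924 to 1766 CPM, had 48.3 CPM of Wipf3. That library also had 3352 CPM of summed blood endothelial markers, the highest of all libraries. Its Prox1 level, 1332 CPM, was below that of each diaphragm and skin library. The part of other cells in the Wipf3 level was not tested.

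Because Wipf3 is known from brain, neuronal markers were looked at beside it. The synaptic genes Snap25 and Syt1 had no count in any diaphragm library, where Wipf3 was at 432 CPM or more. In skin, Syt1 had no count and Snap25 was at most 0.0812 CPM. In meninges, where Wipf3 was lowest, Snap25 was at 2.19 to 4.57 CPM and Syt1 at 0 to 3.04 CPM. The sum over 8 measured neuronal markers of 10 listed was 41.3 to 48.1 CPM in meninges, 162 to 222 CPM in diaphragm and 139 to 218 CPM in skin. Stmn2 (1.85 to 31.1 CPM in meninges, 66.7 to 158 CPM in diaphragm and 112 to 147 CPM in skin) and Map2 (0.740 to 35.7, 56.9 to 92.6 and 0 to 1.10 CPM in the same order) gave most of the peripheral sums, together with Gap43 at 106 CPM in Skin replicate 1. These 3 genes were named after their values were seen. The part of neuronal RNA in the Wipf3 level was not tested.

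Neighbouring genes were checked because no source used here gives the strand setting of the counting. In GENCODE M21, exons of Wipf3 overlap those of Scrn1 and of the transcript 9130019P16Rik on the opposite strand. Scrn1 was at 0.720 to 13.5 CPM in meninges, 0 to 2.44 CPM in diaphragm and 0 to 1.10 CPM in skin, and 9130019P16Rik at 0 to 14.7, 0.454 to 24.4 and 0 to 1.01 CPM in the same order. Neither followed the order of Wipf3, and the part of reads from the opposite strand in the Wipf3 level was not tested. The antisense gene Gm44026, which overlaps Wipf3 without sharing exons, ranged from 0 to 42.9 CPM in meninges, 0.553 to 10.5 CPM in diaphragm and 12.5 to 119 CPM in skin. Of 7111 distinct 50-base words in the transcripts of Wipf3, 5.65% also occurred in transcripts of other genes, namely 9130019P16Rik and Scrn1. No such word was shared with Wipf1 or Wipf2.

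Wipf1, which encodes WIP, the partner that stabilises WASP and is best known from lymphocytes, was present in all 9 libraries. Its libraries measured 87.9, 53.8 and 44.9 CPM in meninges, 137, 60.3 and 43.6 CPM in diaphragm and 54.9, 75.4 and 27.2 CPM in skin. The tissues overlapped throughout, and Diaphragm replicate 1 was the highest library. The edgeR test did not separate meninges from diaphragm (log2 fold change -0.37 with standard error 0.63, adjusted p = 0.951), where 0.344% of all genes were called. Nor did it separate meninges from skin (0.24, standard error 0.63, edgeR adjusted p = 0.94), where 1.32% were called, or diaphragm from skin (0.61, standard error 0.63, edgeR adjusted p = 0.79). The sign of each of these differences changed when 1 library was left out. It turned to 0.26 for meninges against diaphragm without Diaphragm replicate 1 and to -0.02 for diaphragm against skin without that library. For meninges against skin it turned to -0.09 without Meninges replicate 1 and to -0.10 without Skin replicate 3.

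Wipf2, which encodes the WIP relative WIRE or WICH, another partner of N-WASP, spread widely between replicates in diaphragm and skin. It measured 46.4, 80.8 and 66.4 CPM in Meninges replicates 1 to 3, and 1.36, 15.9 and 35.2 CPM in the diaphragm libraries. In skin it measured 7.86, 88.8 and 25.0 CPM. Meningeal libraries lay above diaphragm libraries, as they did for 10.4% of genes tested, while skin libraries overlapped both other tissues. The mean was 3.69-fold higher in meninges than in diaphragm, but the difference did not pass (log2 fold change 1.88 with a standard error of 1.07, edgeR adjusted p = 0.639). The log2 fold change was 2.90 without Diaphragm replicate 3, when the diaphragm mean was 8.62 CPM, and 1.33 without Diaphragm replicate 1. With the replicate number as a block it was 2.67. For meninges against skin the fitted value was 0.67 (standard error 1.04, edgeR adjusted p = 0.885). For diaphragm against skin it was -1.21 (standard error 1.05, edgeR adjusted p = 0.73), and it turned to 0.09 without Skin replicate 2. Without that library the difference between meninges and skin was 1.97.

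Wasl, the N-WASP gene, was measured in each library. Its level was 85.6, 46.3 and 106 CPM in Meninges replicates 1 to 3, 87.1, 91.3 and 128 CPM in the diaphragm libraries and 71.2, 148 and 128 CPM in the skin libraries. The tissues overlapped, and none of the differences passed the edgeR test. Meninges differed from diaphragm by -0.37 on the log2 scale (standard error 0.49, edgeR adjusted p = 0.93) and from skin by -0.55 (standard error 0.49, edgeR adjusted p = 0.753). Diaphragm differed from skin by -0.18 (standard error 0.49, edgeR adjusted p = 0.947), a sign that turned without Skin replicate 2, when the value was 0.03.

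**Figure D2:**
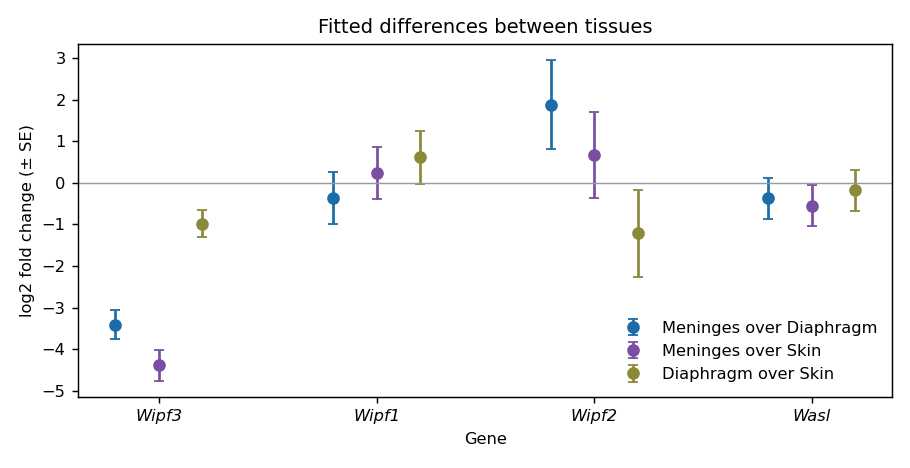
Fitted log2 fold change of the 4 genes that passed the filter on low counts, for meninges over diaphragm, meninges over skin and diaphragm over skin; error bars are standard errors. Wipf3 lies at -3.41 and -4.39 in the meningeal comparisons, while Wipf1 and Wasl lie between -0.55 and 0.61 and the error bars of Wipf2 are the widest.

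Was, the WASP gene of blood cells, had no count in most libraries. It had 47 counts (1.24 CPM) in Meninges replicate 3, 4 counts (0.147 CPM) in Diaphragm replicate 1 and 187 counts (6.70 CPM) in Diaphragm replicate 3, and none in the other 6 libraries. A count of 0 allows up to 3 counts, which is 0.0937 to 0.137 CPM in those libraries, counting error only. The gene did not pass the filter on low counts and was not tested, and no difference between tissues is read from it. The 16 leukocyte markers examined had sums of 17.7 to 47.2 CPM in meninges, 70.9 to 132 CPM in diaphragm and 3.11 to 20.4 CPM in skin. Diaphragm replicate 3, the library with the highest Was level, had the lowest sum of the 3 diaphragm libraries. It had a count for 15 of the 16 markers, 7 of them with no more than 4 counts. The 16 markers did not follow one pattern. The CD45 gene Ptprc had 6.23 CPM in Diaphragm replicate 3 and 118 CPM in Diaphragm replicate 2, where Was had no count. Cd68 had 0.0716 CPM in Diaphragm replicate 3 and 32.3 CPM in Diaphragm replicate 1. Laptm5 (7.31 and 22.5 CPM) and Fcer1g (0.0716 and 25.1 CPM) were likewise lower in Diaphragm replicate 3 than in Diaphragm replicate 1. By contrast, Cd3e had 19.9 CPM in Diaphragm replicate 3 and no count in any other library. Cd79a (16.2 CPM) and Itgb2 (10.5 CPM) were also highest there. Tyrobp (2.88 CPM) and Itgam were highest in Meninges replicate 3, which had the next highest Was level. Of the leukocyte markers named here, all but Ptprc and Laptm5 were named after their values were seen. The part of leukocyte RNA in the Was counts was not tested.

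Levels of different genes were compared per kilobase of annotated exon, using exon lengths from GENCODE M21. Per length, Wipf3 was at 6.22 ± 2.13 CPM per kilobase for meninges, 66.3 ± 6.1 for diaphragm and 131 ± 21 for skin (n = 3 each, SD). Wipf1 was at 10.6 ± 3.8, 13.6 ± 8.5 and 8.91 ± 4.10 CPM per kilobase in the same order, and Wipf2 at 8.25 ± 2.21, 2.24 ± 2.17 and 5.19 ± 5.45. In meninges Wipf1 had the highest mean of the 3 family members and Wipf3 the lowest. Their library ranges overlapped, at 7.61 to 14.9 for Wipf1, 5.93 to 10.3 for Wipf2 and 3.86 to 8.01 for Wipf3. In diaphragm and skin Wipf3 exceeded the sum of the other 2 in each library.

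Wipf3 made up 33.2%, 24.6% and 16.6% of the family's level per length in individual meningeal libraries, listed from high to low. In diaphragm its share was 72.1% to 85.9% and in skin 82.7% to 94.0%. The means were 24.8% ± 8.3 for meninges, 80.8% ± 7.5 for diaphragm and 90.1% ± 6.5 for skin (n = 3 each, SD). Since Wipf3 was picked for its low level in meninges, its low share there is part of the same description. Without Wipf3, the sum of Wipf1 and Wipf2 was 18.8 ± 2.4 CPM per kilobase for meninges, 15.9 ± 6.6 for diaphragm and 14.1 ± 8.8 for skin, and the 3 tissues overlapped. The sum of all 3 members was 25.0 ± 2.3, 82.2 ± 3.9 and 145 ± 18 CPM per kilobase in meninges, diaphragm and skin.

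For the partners they bind, Wasl and Was together were at 13.0 ± 5.1 CPM per kilobase for meninges, 17.5 ± 5.3 for diaphragm and 18.8 ± 6.5 for skin. The family's level over that of Wasl and Was was 2.15 ± 0.88 for meninges, 4.92 ± 1.21 for diaphragm and 8.77 ± 4.75 for skin (n = 3 each, SD). Its highest meningeal value, 3.10, lay below its lowest diaphragm value, 3.58, while diaphragm (up to 5.93) and skin (from 5.80) touched. Wipf3 makes up much of this ratio, so the separation restates the level for which it was picked. With Wipf3 left out, the ratio was 0.911 to 2.59 in meninges, 0.504 to 1.65 in diaphragm and 0.375 to 1.01 in skin, and the tissues overlapped. Transcript ratios say nothing of the ratio of proteins.

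**Figure D3:**
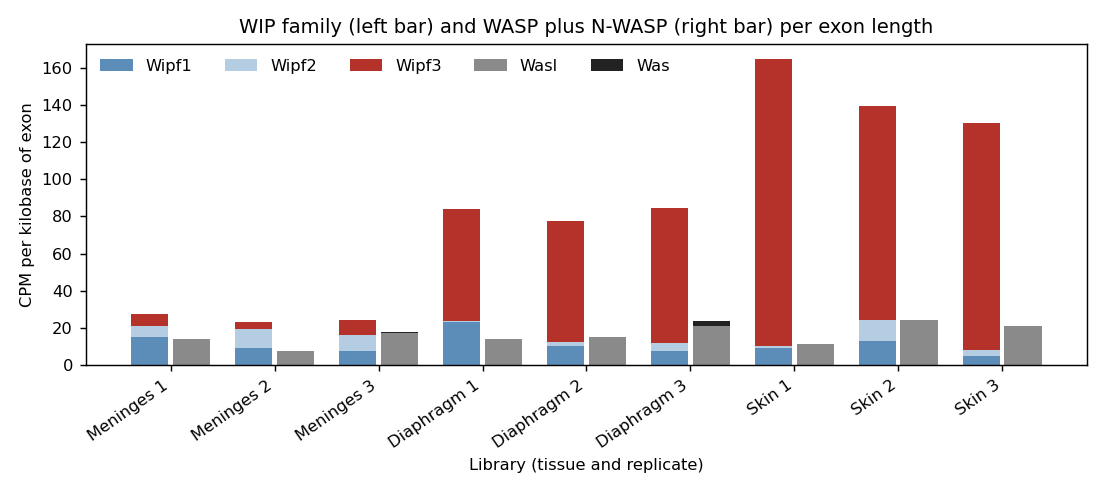
Summed level per kilobase of exon (CPM per kilobase, linear axis) of Wipf1, Wipf2 and Wipf3 in the left bar and of Wasl and Was in the right bar of each library. The Wipf3 segment fills 16.6% to 33.2% of the left bar in meninges and 72.1% to 94.0% in diaphragm and skin, while the Wasl bars stay between 7.52 and 24.0 CPM per kilobase.

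Other genes of the pathway were taken from 6 lists of 79 genes outside the family, all present in the table, and 72 passed the filter on low counts. None was called between meninges and diaphragm by the edgeR test, and 8 of 72 had an unadjusted p under 0.05, as did 10.1% of all genes tested. Without the filter edgeR called 1, and the DESeq2 Wald test called 2, where they called 298 and 629 of all genes. The median log2 fold change was -0.14, against 0.05 over all genes tested. Between meninges and skin 1 was higher and 1 lower, or 2 of 72 where 1.32% of all genes were called (0.748% higher and 0.573% lower in meninges), with a median of -0.09 against 0.08 over all genes. Here 15 of 72 had an unadjusted p under 0.05, as did 13.8% of all genes, and 5 were called by edgeR without the filter, 7 by DESeq2 and 5 by limma voom, where these called 610, 1114 and 414 of all genes. None was called between diaphragm and skin by edgeR, with a median of -0.18 against 0.01, and 7 of 72 had an unadjusted p under 0.05, as did 11.8% of all genes. Without the filter edgeR called 1, and DESeq2 called 2, where they called 305 and 808 of all genes. The shares of all genes at an unadjusted p under 0.05 are the background for the counts by list given below.

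The called genes were Pacsin2 and Wasf3. Pacsin2, a membrane-bending adaptor that binds N-WASP, fell in meninges, with 103, 72.1 and 111 CPM in Meninges replicates 1 to 3 against 358, 282 and 342 CPM in the skin libraries (log2 fold change -1.78, edgeR adjusted p = 0.0367). In diaphragm Pacsin2 stood at 174, 200.3 and 337 CPM, the last of these within the skin range. Wasf3, which encodes the WAVE protein WAVE3, rose in meninges, with 33.0, 44.4 and 14.9 CPM in Meninges replicates 1 to 3 against 1 count in all skin libraries together (edgeR adjusted p = 0.0329). The ratio of its counts per effective library size was 2160 (exact 95% interval 387 to 85334, counting error only). In diaphragm Wasf3 was at 0.295, 12.8 and 11.2 CPM. Each of these 2 calls was lost without any 1 of the meningeal or skin libraries and kept in the 3 fits that left out a diaphragm library.

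The WAVE complex, which switches on Arp2/3 downstream of RAC1, had 11 genes tested, with Wasf3 as the only called gene. The complex had 0 genes at an unadjusted p under 0.05 against diaphragm, 4 against skin and 1 between diaphragm and skin (edgeR). Its 2 genes of highest mean CPM, the subunit gene Nckap1 (257 ± 12 CPM for meninges, 237 ± 44 for diaphragm and 270 ± 27 for skin) and the WAVE2 gene Wasf2 (227 ± 31, 281 ± 85 and 348 ± 155), overlapped between tissues. Of 7 genes of the WASH complex and other nucleation-promoting factors none was called in any comparison (edgeR; at an unadjusted p under 0.05, 0 against diaphragm, 1 against skin and 2 between diaphragm and skin). Jmy, a p53 cofactor that also nucleates actin, was at 164 ± 41 CPM for meninges, 264 ± 35 for diaphragm and 463 ± 135 for skin, with an edgeR adjusted p = 0.0621 for meninges against skin, and was called there in 1 of the 9 fits that left out a library. The WASH subunit Washc5 was at 94.5 ± 20.6, 78.1 ± 9.5 and 157 ± 77 CPM in the same order.

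The Arp2/3 complex itself, 9 subunits tested of 10 listed, had no called member and none at an unadjusted p under 0.05 in any of the 3 edgeR comparisons. Actr2, the ARP2 gene, was at 174 ± 27 CPM for meninges, 165 ± 19 for diaphragm and 240 ± 71 for skin, and the subunit Arpc5 at 140 ± 37, 248 ± 95 and 217 ± 32 CPM. Of 20 tested activators and adaptors of WASP and N-WASP, Pacsin2 was the only one called. By the same edgeR test, 4 against diaphragm, 3 against skin and 1 between diaphragm and skin had an unadjusted p under 0.05. The GTPase Rac1 stood at 502 ± 69 CPM for meninges, 659 ± 135 for diaphragm and 611 ± 73 for skin, and the scaffold Itsn2 at 247 ± 83, 276 ± 42 and 323 ± 18 CPM.

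Among 8 tested inhibitors and branch regulators of Arp2/3 none was called in any comparison (edgeR; 1, 2 and 1 at an unadjusted p under 0.05 for meninges against diaphragm, meninges against skin and diaphragm against skin). The coronin Coro1c was at 54.4 ± 3.6 CPM for meninges, 105 ± 61 for diaphragm and 124 ± 89 for skin. Gmfb, a factor that removes actin branches, was at 94.7 ± 32.1, 70.7 ± 21.6 and 91.2 ± 32.4 CPM. Of 17 tested actin genes, partners and other nucleators none was called either (edgeR; 3, 5 and 2 at an unadjusted p under 0.05, in the same order). Actb, the beta-actin gene, was at 1058 ± 162 CPM for meninges, 873 ± 223 for diaphragm and 569 ± 12 for skin. Actb has processed pseudogenes, and how shared reads were counted was not examined. The formin gene Fmnl2 was at 220 ± 34, 320.5 ± 157.2 and 378 ± 94 CPM.

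**Figure D4:**
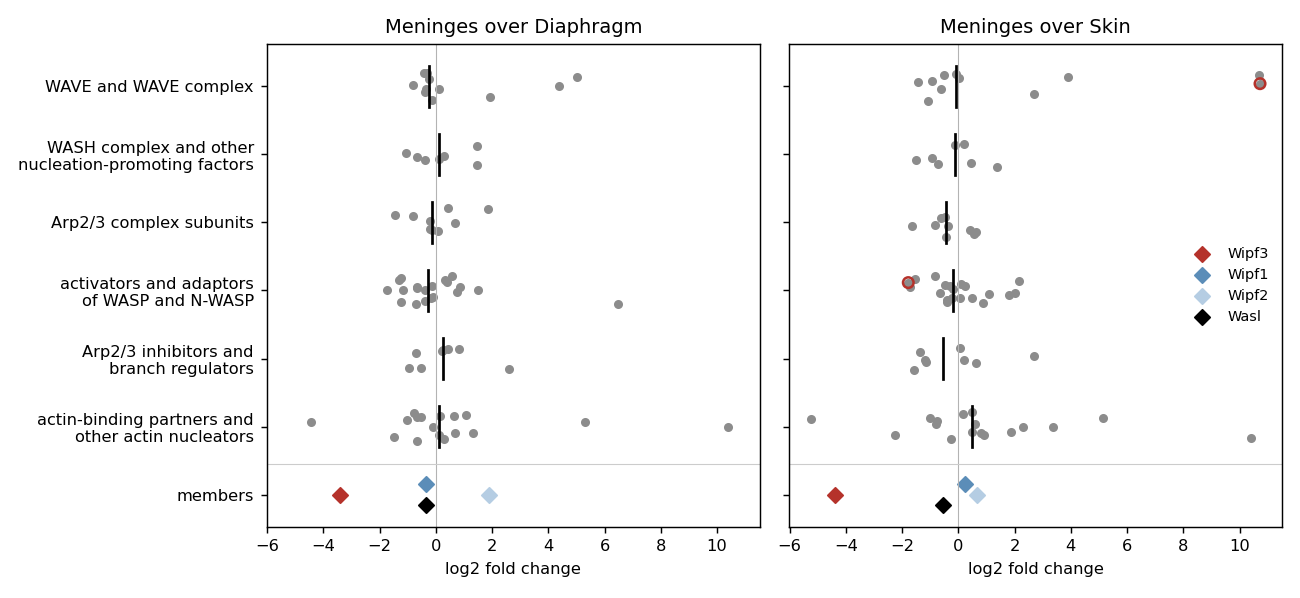
Log2 fold change of each tested pathway gene by list (grey points, vertical scatter for visibility only) and of the 4 tested family genes (diamonds), for meninges over diaphragm and meninges over skin; black lines are list medians and red circles called genes. List medians lie between -0.55 and 0.48, and the outermost points include genes with no count in a tissue, whose fitted size depends on the prior count.

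The genes whose profile over the 9 libraries was nearest to that of Wipf3 were found by the root mean square difference between log2 CPM values, each gene centred on its own mean, among 9508 other genes whose average log2 CPM was 3 or more. The nearest was Glis3, a zinc finger transcription factor, at 0.37 log2 units, with 11.4 ± 5.3 CPM for meninges, 92.5 ± 33.9 for diaphragm and 176 ± 49 for skin. Next came Gucy1b3, a subunit of soluble guanylate cyclase (0.43), the NOTCH regulator Dtx1 (0.49) and Tgfbi, a secreted matrix protein (0.51), then the other cyclase subunit Gucy1a3 (0.55) and Pkhd1l1 (0.56). The median over all compared genes was 2.30. Within the family, Wasl lay at 1.71, Wipf1 at 2.09 and Wipf2 at 3.20 log2 units from Wipf3. The 9 libraries share their tissues, so any gene with a like order of tissue means comes near.

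**Figure D5:**
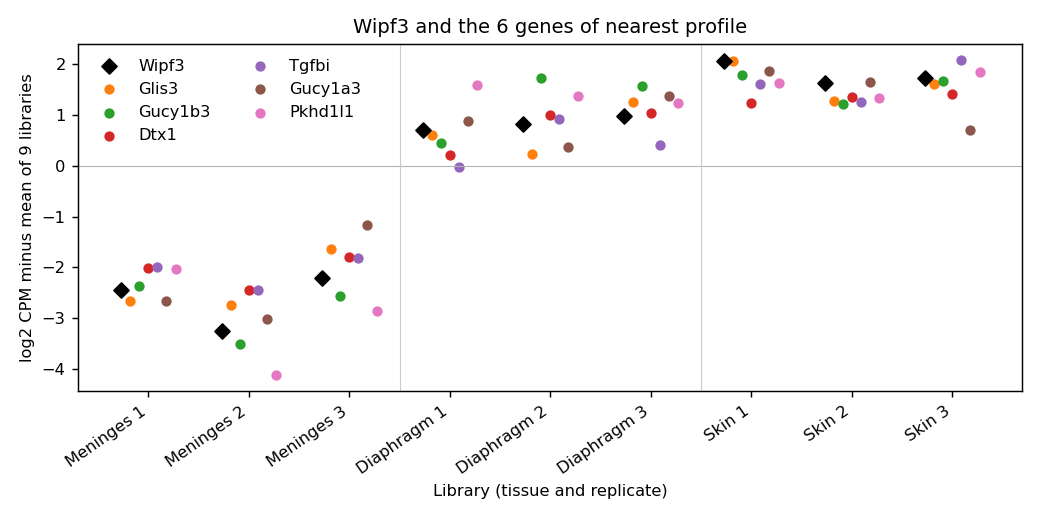
Log2 CPM minus the gene's mean over 9 libraries, for Wipf3 (black diamonds) and the 6 genes of nearest profile (coloured circles), by tissue and replicate; points within a library are spread sideways for visibility only. All 7 genes lie below their mean in the 3 meningeal libraries, and in skin all lie above it.

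For Was, the nearest profile belonged to the adhesion receptor gene Adgrg2, at 0.82 log2 units among 16809 genes of like or higher average level. Adgrg2 had 13.7 CPM in Diaphragm replicate 3 and 3.33 CPM in Meninges replicate 3, the 2 libraries with the most Was counts, and at most 0.369 CPM in any other. The next 4, Sars2, Has2os, Ubxn10 and Thap8, at 0.987 to 0.998 log2 units, had counts in the same 2 libraries at no more than 6.66 CPM. None of the 16 leukocyte markers was among these 5. With counts in so few libraries, the likeness describes those libraries only.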

How the data were processed

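The authors' deposited values are raw counts of reads by Ensembl gene ID in 9 columns. The submitters' processing notes name FastQC, STAR, HTSeq and the mouse build mm9. For these tools, versions, annotation, strandedness and multi-mapped reads are not given in any source used here. The table has no coordinates. Lengths, neighbours and promoters, with their positions, strands and exon overlaps, come from GENCODE M21 and RefSeq, both on GRCm38. Whether the same overlaps held in the annotation used for counting was not examined. RNA was extracted with the PicoPure kit and amplified with an Ovation RNA-Seq kit according to the labels' protocols, and amplified reads are not independent molecules, so floors cover counting error only.

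The members and gene lists were chosen with earlier results of these data known. All 9 libraries and 23018 genes were used, and of these 15831 kept the deposited symbol. Between replicates, chi-square over its degrees of freedom was 308.3 to 506.9, so none was counted as a repeat. Genes were filtered with filterByExpr (14831 left), scaled by TMM and tested with edgeR 4.0.16 in R 4.3.3 (glmQLFit and glmQLFTest, 1 mean per tissue, 9 libraries together). Standard errors are the log2 fold change over the square root of the F statistic. P-values were Benjamini-Hochberg adjusted over all genes tested, with 0.05 as threshold. The common coefficient of variation was 1.24, so that single genes needed large differences to pass. At library totals of 26075366 to 34592850 counts, counting error was small for Wipf1, Wipf3 and Wasl. It was larger for Was and for the lowest Wipf2 libraries (37 counts in Diaphragm replicate 1 and 203 in Skin replicate 1). Profile distances used log2 CPM with 0.5 counts added. Per-length values used the union of annotated exons. A comparison of the family's proteins was planned and is not reported here.

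Genes named are the 5 members, the 6 nearest in profile to Wipf3 and 5 nearest to Was, and from each pathway list the called genes and the 2 of highest mean level. Prox1, genes overlapping Wipf3 and some cell type markers are named as well, the markers in part after their values were seen. Other settings were DESeq2 1.42.0, DESeq2 and upper-quartile factors, no filter, 50 counts in 3 libraries, limma 3.58.1 voom with quality weights, 2 tissues only, the replicate number as a block, coding length and each library left out in turn. Scaling to Prox1 was added after seeing the data. Plots used Python 3.11.15 and matplotlib 3.10.9.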

Additional observations from a re-analysis of the deposited data

How the results depend on the processing

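For the 10 member differences with a test, 17 other settings gave 170 fitted fold changes, of which 164 kept their direction and their side of the threshold and 6 reversed. The 6 were differences that had not passed, each with 1 library left out: Wipf1 at 0.26 (meninges against diaphragm) and -0.017 (diaphragm against skin) without Diaphragm replicate 1, Wipf1 at -0.094 and -0.097 (meninges against skin) without Meninges replicate 1 and Skin replicate 3, and, without Skin replicate 2, Wipf2 at 0.090 and Wasl at 0.033 (diaphragm against skin). Wipf3 in meninges ranged from -3.64 to -3.16 against diaphragm and from -4.62 to -4.14 against skin when 1 library was left out, and by less under the other planned settings. Scaled to Prox1 it was -2.69 and -3.57. Against skin, Wipf3 in diaphragm ranged from -1.06 to -0.84 when 1 library was left out, and its adjusted p was 0.116 to 0.452 over the 8 settings that kept all libraries compared. Ranges when 1 library was left out were -0.70 to 0.26, -0.097 to 0.59 and -0.017 to 0.96 for Wipf1, 1.33 to 2.90, 0.18 to 1.97 and -2.24 to 0.090 for Wipf2, and -0.63 to -0.09, -0.82 to -0.28 and -0.44 to 0.033 for Wasl, each for meninges against diaphragm, meninges against skin and diaphragm against skin. The cause of these reversals was not tested beyond the library left out.

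Was was tested in 8 fits, 1 without a filter and 7 with a library left out, with edgeR adjusted p from 0.411 to 0.996 over the 3 comparisons. Counts of called genes moved more. Against the 51 called between meninges and diaphragm there were 298 without a filter, 629 with DESeq2, 200 with limma voom and 108 with 2 tissues only, and 19 (without Meninges replicate 3) to 105 (without Skin replicate 1) with 1 library left out. Against 196 between meninges and skin there were 610 without a filter, 1114 with DESeq2 and 414 with limma voom, and 74 (without Meninges replicate 3) to 236 with 1 library left out. Against 6 between diaphragm and skin there were 305 without a filter, 13 with the stricter filter, 808 with DESeq2, 1 with limma voom, 1 with 2 tissues only, 16 with the replicate block and 2 (without Diaphragm replicate 1) to 58 (without Skin replicate 2) with 1 library left out. Called pathway genes between meninges and skin numbered 5 without a filter, 7 with DESeq2, 5 with limma voom, 1 with 2 tissues only and 0 to 2 with 1 library left out. Between meninges and diaphragm they numbered 1 without a filter and 2 with DESeq2, and between diaphragm and skin 1 and 2. By coding length, the ratio of the WIP family to Wasl and Was was 2.83 in meninges, 6.42 in diaphragm and 11.5 in skin, against 2.15, 4.92 and 8.77 by exon length. Deviations of same-numbered libraries correlated between -0.0234 and 0.0497. With 3 libraries per tissue and a wide spread, this cannot tell whether same-numbered libraries shared animals or a sort, so pairing is unknown. With the replicate block the log2 fold change of Wipf2 was 2.67 for meninges against diaphragm, and no tested difference of a member changed its side of the threshold.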
